A study of Arabidopsis thaliana with 48 samples.

Results

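Leaves of Arabidopsis thaliana harvested at the time labelled day 0.083 were compared with leaves harvested at the time labelled day 0.916, which are the first and the last of the 6 labelled times within one day. Both groups were taken by their day label and light level, and together they hold 8 of the 48 samples of the series. Each group has 2 biological replicates, sequenced on 2 lanes each, so the comparison rests on 4 of 24 replicates. The plants of both groups were of the ecotype Columbia, had grown for 6 weeks and stood for the last 2 of them under shade cloth giving 250 µmol photons per square metre per second at plant height. The photoperiod was 10 h, with 23 °C by day and 5 °C by night. Per the labels, whole rosettes of 4 to 6 plants were harvested at a time and extracted one by one, and their RNA was then combined at random into the replicates. The harvests spread over 2 diurnal cycles, and whether both times come from the same cycle is not stated. The labels do not state from which moment the days are counted or when the lamps went on, so the labels do not show that both times fall in the night. The labels name no difference between the groups other than the time.

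The plant circadian clock is a network of transcriptional repressors and activators that are made at different times of day. The MYB-related proteins CCA1 and LHY accumulate around dawn and repress genes of the evening, among them the pseudo-response regulator TOC1, GI and the members of the evening complex, LUX, ELF3 and ELF4. The evening proteins in turn repress CCA1 and LHY through the night. Many evening genes carry a short promoter sequence, the evening element, which CCA1, LHY and the related REVEILLE (RVE) proteins bind. Photoperiod genes, starch turnover in the chloroplast, cold acclimation and the synthesis of ascorbate (vitamin C) are among the processes that the clock and light set jointly in leaves.

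Reads were deposited as raw counts per transcript and lane. After lanes and transcripts were summed, the replicates of day 0.083 held 35859304 and 35096614 counts and those of day 0.916 held 33628158 and 34512933. The replicates of day 0.916 stood apart from each other: they differed with 84.6 times the variance of independent counts, against 11.0 times at day 0.083 and 7.12 to 29.7 times at the 4 other times of the diurnal set. Each test below therefore used only the 4 replicates compared, and values with each replicate of day 0.916 alone are given for the genes and lists that they move most. The defining leaf markers were high in all 4 replicates, with a summed level of 27236 to 50783 CPM (counts divided by library sizes that TMM adjusts) over 9 genes. Of the 4 root markers the summed level was 9.38 to 13.2 CPM and of the 4 flower and meristem markers 5.10 to 8.72 CPM. Guard cell, epidermis and vascular markers, 17 genes in all, held no locus past the threshold. Fewer cells of a type and less RNA per cell cannot be told apart in such bulk samples.

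Of 20438 loci tested with edgeR's quasi-likelihood test, 258 passed an adjusted p of 0.05 (Benjamini-Hochberg over all loci tested), which is 1.26% of them. At day 0.083, 153 of these were higher (0.749%) and 105 lower (0.514%). At least a 2-fold change was fitted for 126 of the higher and 80 of the lower loci. The replicates of the 2 groups did not overlap at any of the 258, whereas over all loci tested the groups did not overlap at 10060 (49.2%). At an unadjusted p of 0.05, 3331 loci (16.3%) passed. When the 6 diurnal groups shared one estimate of the spread, 1781 loci passed (8.50% of 20958 tested, 4.91% higher and 3.59% lower), and 254 of the 258 were among them. The count depends on the replicates: 4424 loci passed without replicate 1 of day 0.916 (21.3%, with 10.7% higher and 10.6% lower) and 2071 without its replicate 2 (9.94%, with 5.14% higher and 4.79% lower), where the spread came from the closer pair of day 0.083. Only 2 loci passed without replicate 1 of day 0.083 and 9 without its replicate 2, where the spread came from the pair of day 0.916. The pair is LHY and AT1G26790, a Dof-type zinc finger gene, and both of these were also among the 9.

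The morning genes of the clock that passed were all higher at day 0.083. Of the 16 in the list, 8 passed the threshold higher and none lower, where 0.749% of all loci tested passed higher. The median log2 change over the 16 was 1.22, against -0.02 over all loci tested. LHY (AT1G01060, chr1:33365-37871 of TAIR10.1, minus strand) was at 256 and 250.4 CPM in the replicates of day 0.083 and at 16.9 and 13.9 CPM in those of day 0.916. Both replicates of day 0.083 lay far above both of day 0.916, and the replicates of each group were close. The fitted ratio was 16.3, with a log2 change of 4.03 ± 0.15 (SE) and an adjusted p of 0.00372 (edgeR). CCA1 (AT2G46830, chr2:19245591-19248915, plus strand), the closest relative of LHY in the clock, was at 429.7 and 415 CPM at day 0.083 and at 40.9 and 26.2 CPM at day 0.916. Here too all values of day 0.083 were high, and the replicates of day 0.916 differed from each other more than those of LHY did. Its log2 change was 3.64 ± 0.24 (SE), with an adjusted p of 0.0115 (edgeR).

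The RVE genes encode MYB-related proteins of the same family, of which RVE8 is an activator of evening genes and RVE1 links the clock to auxin and growth. ASG4, also called RVE3, stood at 21.6 and 21.0 CPM at day 0.083 and at 1.45 and 0.493 CPM at day 0.916, the largest fitted change of the list. The 2 groups were far apart, and replicate 1 of day 0.916 was well above replicate 2. Its log2 change was 4.43 ± 0.41 (SE) (edgeR, adjusted p 0.0208), with 3.88 against replicate 1 of day 0.916 alone and 5.41 against replicate 2 alone. RVE1 had 223 and 218 CPM at day 0.083 and 45.4 and 41.1 CPM at day 0.916, with a log2 change of 2.34 ± 0.12 (SE) (edgeR, adjusted p 0.00846). RVE8 had 42.8 and 44.8 CPM and 16.2 and 12.3 CPM, with a log2 change of 1.60 ± 0.16 (SE) (edgeR, adjusted p 0.0208). The replicates of both genes were close within each group and the groups did not overlap. A smaller rise passed for AT4G01280, a homeodomain-like gene of this family, with a log2 change of 0.83 ± 0.12 (SE) (edgeR, adjusted p 0.0475). It did not pass under total-count scaling (adjusted p 0.0631), without the filter on low counts (0.0605) or with either lane alone (0.0542 and 0.0726).

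The LNK genes encode coactivators that work with RVE8. LNK3 had 59.9 and 57.1 CPM at day 0.083 against 15.5 and 9.97 CPM at day 0.916 and LNK2 117 and 111 CPM against 48.8 and 35.0 CPM. Both were higher at day 0.083 in every replicate, by 2.18 ± 0.21 (SE) and 1.43 ± 0.17 (SE) on the log2 scale (edgeR, adjusted p 0.0208 and 0.0324). LNK4, at 1.01, and LNK1, at -0.82, had opposite signs and did not pass (adjusted p 0.0817 and 0.101). RVE2 was high in all 4 replicates, with 236 and 221 CPM at day 0.083 and 178 and 198 CPM at day 0.916, and its log2 change of 0.26 ± 0.13 (SE) did not pass (edgeR, adjusted p 0.406). RVE4 (log2 0.71), AT5G52660 (log2 0.92) and RVE7 (log2 1.55) did not pass either, with adjusted p of 0.0671, 0.0546 and 0.0967 from edgeR. The pseudo-response regulators PRR7 and PRR9, which repress CCA1 and LHY during the day, had log2 changes of -0.59 ± 0.12 (SE) and -0.22 ± 0.42 (SE), with adjusted p of 0.0946 and 0.835 (edgeR). PRR9 was scarce, at 0.761 and 0.808 CPM and 1.14 and 0.667 CPM, and the groups overlapped.

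Through the 6 labelled times LHY and CCA1 had the same order of levels. LHY had its highest level at day 0.25, with 612 ± 14.6 CPM (SD, n = 2), then 496 ± 8.91 CPM at day 0.375, 253 ± 3.84 CPM at day 0.083, 15.4 ± 2.12 CPM at day 0.916 and 1.396 ± 0.0127 CPM at day 0.625. It was lowest at day 0.75, with 0.742 ± 0.0405 CPM. RVE1 was instead highest at day 0.083, with 221 ± 3.67 CPM, but its level at day 0.25, 215 ± 26.0 CPM, lay within the spread of the replicates. By day 0.916 LHY and RVE1 had left their lowest levels, and at day 0.083 LHY was still below its level at day 0.25.

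**Figure D1:**
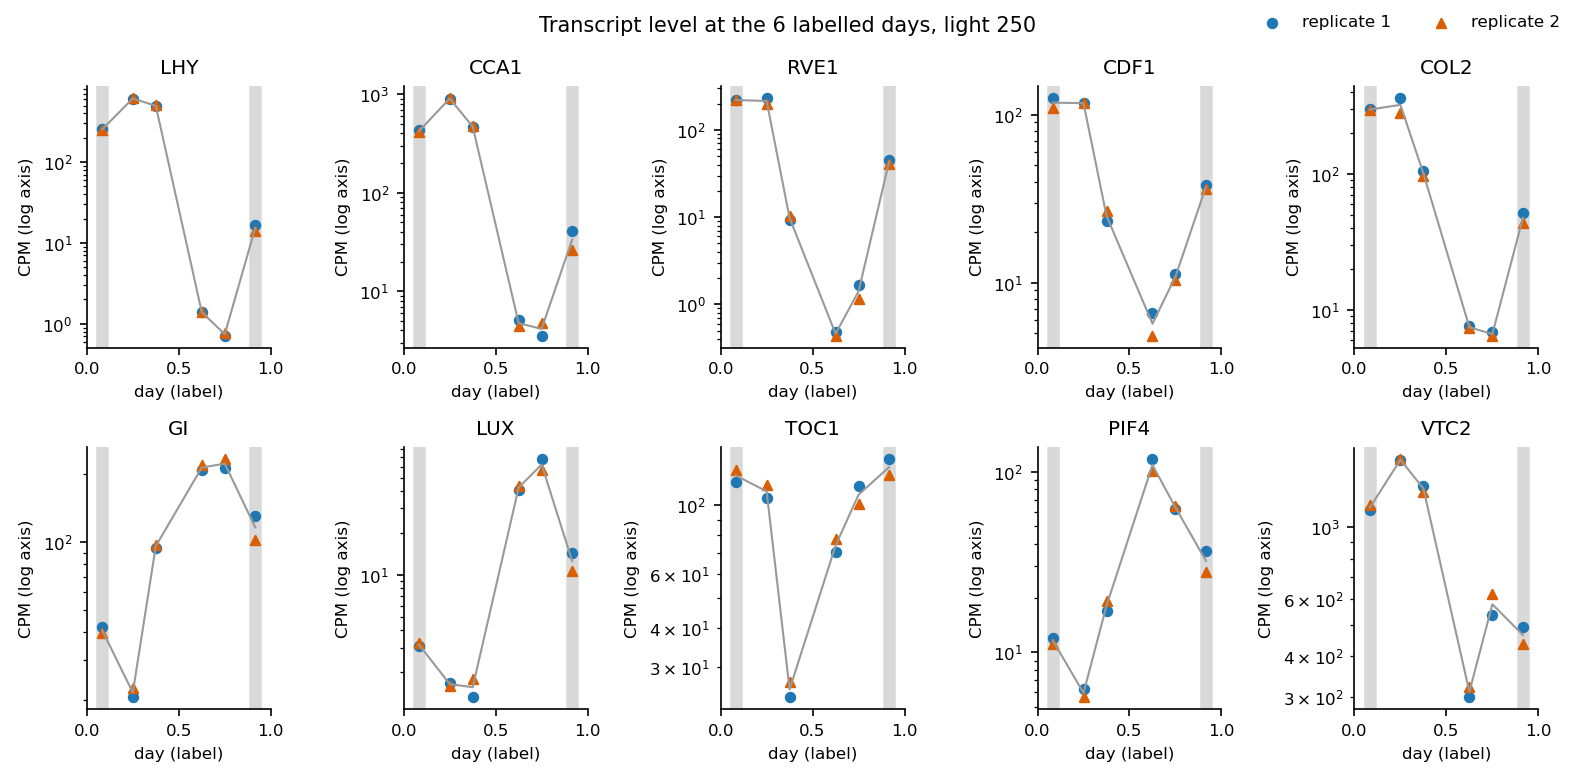
CPM on a log axis for 10 genes at the 6 labelled days, with circles for replicate 1, triangles for replicate 2 and a line through the means. Grey bands mark days 0.083 and 0.916. LHY, CCA1, RVE1, CDF1 and COL2 are high in the first band and lower in the last, GI, LUX and PIF4 the reverse, and TOC1 overlaps between them.

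The evening genes that passed were all lower at day 0.083. Of 12 in the list, 3 passed lower and none higher, where 0.514% of all loci tested passed lower. The median log2 change was -0.84, against -0.02 over all loci. LUX, the DNA-binding member of the evening complex, was at 3.07 and 3.23 CPM at day 0.083 and at 14.4 and 10.7 CPM at day 0.916. All values of day 0.916 were high, and the log2 change was -2.01 ± 0.21 (SE) (edgeR, adjusted p 0.023). GI, a large protein that stabilises the photoreceptor F-box proteins ZTL and FKF1, was at 42.0 and 39.7 CPM against 131 and 102 CPM. Its replicates did not overlap between the groups, with a log2 change of -1.53 ± 0.15 (SE) (edgeR, adjusted p 0.0208). CHE, a TCP transcription factor that represses CCA1, was at 10.9 and 9.78 CPM against 23.0 and 34.3 CPM, again with no overlap. Its log2 change of -1.49 ± 0.22 (SE) passed only just, with an adjusted p of 0.0495 (edgeR), and did not pass under RLE scaling (0.0509), under other filters on low counts (0.0505 and 0.068) or with counts halved (0.0523).

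TOC1, which represses CCA1 and LHY, did not separate the times, with 119.5 and 130.5 CPM at day 0.083 and 141 and 125 CPM at day 0.916. The groups overlapped, and the log2 change of -0.10 ± 0.13 (SE) did not pass (edgeR, adjusted p 0.731). FKF1, which degrades CDF repressors in the light, depended on the replicate of day 0.916. It had 6.34 and 8.25 CPM at day 0.083 and 31.3 and 14.3 CPM at day 0.916, where replicate 1 was well above replicate 2. Both replicates of day 0.916 lay above both of day 0.083, and the log2 change of -1.65 ± 0.38 (SE) did not pass (edgeR, adjusted p 0.119). It was -2.10 against replicate 1 alone and -0.98 against replicate 2 alone. The changes of ELF4 (log2 -1.02), PRR3 (-1.04), BOA (-0.65), PRR5 (-0.64) and ELF3 (-0.44) were all negative and did not pass, with adjusted p from 0.0574 to 0.279 (edgeR). For ELF4 the change was -1.37 against replicate 1 of day 0.916 alone and -0.55 against replicate 2 alone. The F-box photoreceptor genes ZTL, at 0.21, and LKP2, at 0.33, were the only positive values of the list and did not pass (adjusted p 0.423 and 0.327).

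The CDF proteins are Dof-type repressors of CO, the gene that activates the flowering signal FT in long days. Of the 10 genes in this list 9 were tested, and 4 passed higher at day 0.083, where 0.749% of all loci tested did. None passed lower, and the median log2 change was 1.52, against -0.02 over all loci. AT1G26790, annotated as a Dof-type zinc finger gene, was at 141 and 115 CPM at day 0.083 and at 9.38 and 8.46 CPM at day 0.916. The groups were far apart, with a log2 change of 3.83 ± 0.15 (SE) (edgeR, adjusted p 0.00372). CDF1 was at 126 and 109.9 CPM against 38.3 and 36.3 CPM, and its log2 change was 1.64 ± 0.12 (SE) (edgeR, adjusted p 0.0115). The CONSTANS-like genes COL2, with 303 and 295 CPM against 51.6 and 44.1 CPM, and COL1, with 356 and 312 CPM against 134 and 122 CPM, were likewise high in both replicates of day 0.083. Their log2 changes were 2.63 ± 0.14 (SE) and 1.37 ± 0.14 (SE) (edgeR, adjusted p 0.00846 and 0.0229).

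CDF2 and CDF3 had fitted changes close to that of CDF1, 1.52 ± 0.23 (SE) and 1.53 ± 0.24 (SE), but did not pass (edgeR, adjusted p 0.0508 and 0.0574). In both, replicate 1 of day 0.916 was well above replicate 2, with 42.5 and 26.3 CPM for CDF2 and 54.8 and 32.6 CPM for CDF3, and both lay below the replicates of day 0.083. Against replicate 1 alone the log2 changes were 1.22 for CDF2 and 1.21 for CDF3, and against replicate 2 alone 1.91 and 1.95. CO, at 18.7 and 21.4 CPM and 16.5 and 13.0 CPM, and AT1G69570, with a log2 change of 0.83, did not pass. AT2G34140 was scarce in all 4 replicates with overlapping groups. FT was too scarce to test, at 0.28 CPM or less. With the spread of the 6 groups, 19 of the 37 clock and photoperiod loci tested passed higher and 9 lower, against 12 and 3 here. Over all loci tested the shares were 4.91% higher and 3.59% lower with that spread, and 0.749% and 0.514% here. Fits against a single replicate of day 0.916 took their spread from the closer pair of day 0.083, so passing there is no added support for a call. Several of the loci named so far and VTC5, a gene of ascorbate synthesis, passed in those fits but not here. More of all loci tested passed in those fits too.

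**Figure D2:**
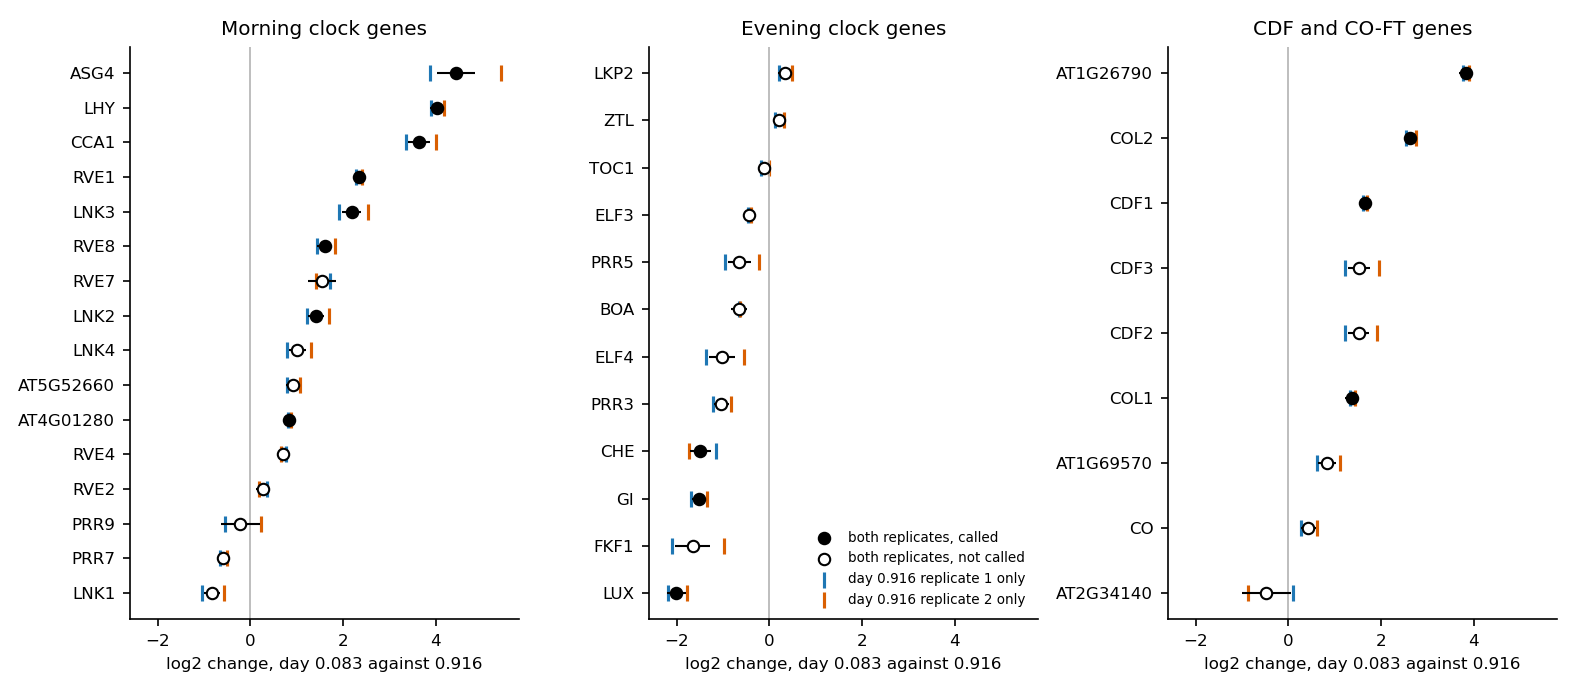
Fitted log2 change at day 0.083 against day 0.916 for the 37 clock and photoperiod loci tested, with bars of 1 SE. Filled circles passed the threshold and open ones did not. Ticks give the change against each replicate of day 0.916 alone: they lie close for LHY and RVE1 and far apart for ASG4, FKF1, CDF2 and CDF3.

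Promoter sequences of 6 of these genes are shown because they carry the short elements named above: the G-box CACGTG, a site of light and clock regulators, in 4 morning genes that were higher at day 0.083, and the evening element in 2 evening genes, of which LUX was lower and TOC1 did not pass. Each run is the 250 bases before the annotated gene start, 5′ to 3′ on the gene's strand, read from the RefSeq genome of build TAIR10.1. Capitals mark the G-box in the first 4 and the evening element, AAAATATCT or its reverse complement AGATATTTT, in the last 2. The runs lie at chr2:19245341-19245590 on the plus strand (CCA1), chr1:37872-38121 minus (LHY), chr5:5692993-5693242 minus (RVE1), chr1:190158-190407 plus (ASG4), chr3:17182792-17183041 plus (LUX) and chr5:24674713-24674962 plus (TOC1).
CCA1: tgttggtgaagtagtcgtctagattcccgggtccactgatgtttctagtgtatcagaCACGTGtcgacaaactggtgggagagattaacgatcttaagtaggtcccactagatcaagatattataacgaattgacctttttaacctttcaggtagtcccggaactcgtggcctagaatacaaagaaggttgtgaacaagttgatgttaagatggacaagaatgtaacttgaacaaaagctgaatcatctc
LHY: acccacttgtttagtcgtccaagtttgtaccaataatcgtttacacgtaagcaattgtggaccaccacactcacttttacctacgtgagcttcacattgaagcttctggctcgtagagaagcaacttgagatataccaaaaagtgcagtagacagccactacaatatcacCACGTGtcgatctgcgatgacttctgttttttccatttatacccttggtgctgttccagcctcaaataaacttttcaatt
RVE1: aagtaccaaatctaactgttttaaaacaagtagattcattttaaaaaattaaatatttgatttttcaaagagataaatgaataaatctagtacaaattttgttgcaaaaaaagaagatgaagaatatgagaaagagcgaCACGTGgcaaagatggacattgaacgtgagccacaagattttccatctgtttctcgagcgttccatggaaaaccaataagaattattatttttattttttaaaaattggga
ASG4: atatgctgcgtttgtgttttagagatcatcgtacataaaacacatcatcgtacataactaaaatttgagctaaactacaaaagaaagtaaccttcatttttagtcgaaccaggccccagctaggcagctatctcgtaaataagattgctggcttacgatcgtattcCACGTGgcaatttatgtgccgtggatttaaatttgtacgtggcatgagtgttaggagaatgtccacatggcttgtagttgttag
LUX: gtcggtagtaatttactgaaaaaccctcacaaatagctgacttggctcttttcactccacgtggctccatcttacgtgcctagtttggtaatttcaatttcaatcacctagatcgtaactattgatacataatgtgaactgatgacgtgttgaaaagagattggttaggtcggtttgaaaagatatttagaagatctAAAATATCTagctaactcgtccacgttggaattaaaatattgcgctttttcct
TOC1: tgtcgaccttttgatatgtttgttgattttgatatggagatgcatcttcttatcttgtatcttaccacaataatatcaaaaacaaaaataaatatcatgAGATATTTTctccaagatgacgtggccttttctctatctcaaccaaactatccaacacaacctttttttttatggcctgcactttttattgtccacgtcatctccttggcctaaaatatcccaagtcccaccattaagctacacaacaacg

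The first base of the G-box lies 193 bases before the gene start in CCA1, 80 in LHY, 111 in RVE1 and 84 in ASG4, and that of the evening element 53 in LUX and 151 in TOC1, where it is on the other strand. The LUX promoter also holds a G-box, in lower case here. In windows from 250 bases before to 50 after the gene start, 12 of the 16 morning gene promoters held a G-box and 2 an evening element (RVE7 and PRR9). Of the 12 evening gene promoters, 5 held an evening element (PRR5, TOC1, LUX, BOA and FKF1) and 2 a G-box. All 8 morning genes that passed hold a G-box in this window. RVE2, LNK1, PRR7 and PRR9 also hold a G-box and did not pass. RVE4, AT5G52660, RVE7 and LNK4 hold none and did not pass either. This split was not tested.

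The same windows were searched on both strands for 4 motifs, none of which contains another: the evening element AAAATATCT, the G-box CACGTG, the core CCGAC of the cold and dehydration element, and TATCC, a sucrose-related box. Of all 32834 promoters of the annotation, 2.61% held an evening element, and of the 20240 promoters of loci tested 3.05%. Among the loci called lower at day 0.083 the share was 14 of 105 (13.3%), and among those called higher it was 2 of 152 (1.32%). Besides LUX the 14 include MYB73, CCL, JMJD5 and the gene of the ERF-type factor AT5G61590, and the 2 are COL2 and TZP. The G-box was in 6.90% of all promoters, 8.73% of those of loci tested, 19.7% of those called higher and 9.52% of those called lower. CCGAC was in 15.6% of all promoters, 16.4% of those of loci tested, 25.0% of those called higher and 8.57% of those called lower. For TATCC the shares were 33.6%, 33.7%, 37.5% and 33.3% in the same order. The share of evening elements depended on the call: among loci called lower without replicate 1 of day 0.916 it was 4.38%, and without replicate 2 it was 6.93%. These shares describe letters in a window and were not tested.

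**Figure D3:**
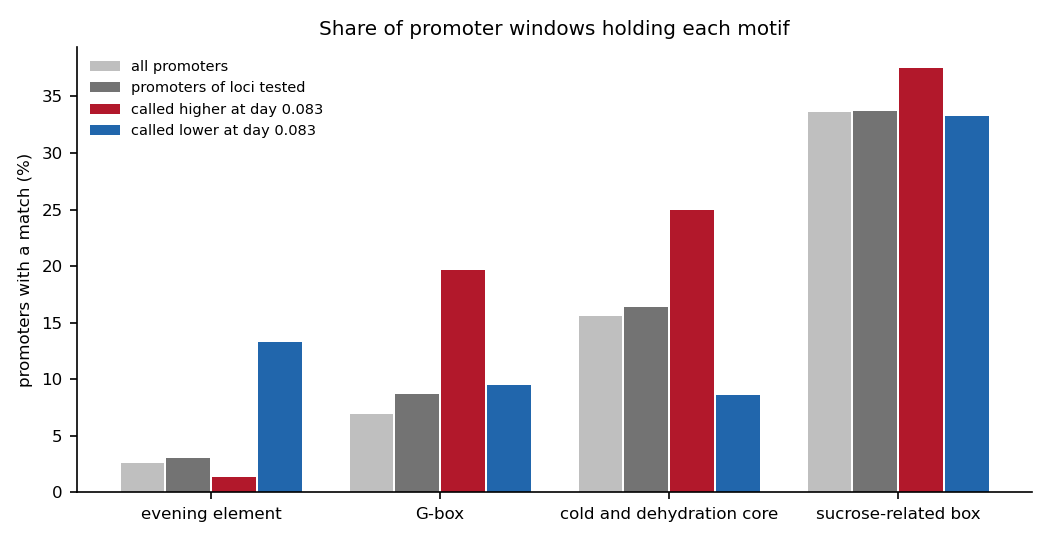
Percentage of promoter windows, 250 bases before to 50 after the gene start, that hold each of 4 motifs on either strand, for all promoters, loci tested, and loci called higher or lower at day 0.083. The blue bar of the evening element, 13.3%, and the red bar of the G-box, 19.7%, stand above the grey bars. Those are 2.61% and 6.90% for all promoters and 3.05% and 8.73% for loci tested.

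Ascorbate is made in leaves from mannose and galactose sugars, and GDP-L-galactose phosphorylase, encoded by VTC2 and VTC5, takes the first step committed to it. The median log2 change of the 10 genes of the pathway was -0.03, against -0.02 over all loci tested. Of the 10, 1 passed, higher at day 0.083, where 0.749% of all loci did. That gene was VTC2 (AT4G26850, chr4:13498956-13501701), at 1128 and 1169 CPM at day 0.083 and at 493 and 436 CPM at day 0.916. Every replicate of day 0.083 was far above both of day 0.916, with a log2 change of 1.29 ± 0.17 (SE) (edgeR, adjusted p 0.0376). VTC2 did not pass when the replicate number was added to the fit (edgeR, adjusted p 0.102). VTC5 (AT5G55120) had the opposite sign, with 25.2 and 23.2 CPM against 32.8 and 36.9 CPM. Its groups did not overlap, and the log2 change of -0.54 ± 0.12 (SE) did not pass (edgeR, adjusted p 0.114). The other 8 genes, from the mannose isomerase PMI1 to the final enzyme GLDH, had log2 changes between -0.27 (VTC4) and 0.37 (GME), and the replicates of day 0.916 differed from each other by at most 0.35 on that scale. Across the 6 times VTC2 was highest at day 0.25, with 1618 ± 5.32 CPM (SD, n = 2), and lowest at day 0.625, with 310.3 ± 16.5 CPM. Day 0.916, at 465 ± 40.0 CPM, lay next to day 0.75, at 578 ± 61.8 CPM, and day 0.083, at 1148 ± 28.9 CPM, next to day 0.375, at 1318 ± 40.5 CPM.

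Leaves store part of the carbon fixed by day as starch and break it down at night, through phosphorylation of the granule by GWD1 and PWD, hydrolysis by beta-amylases and export of maltose by MEX1. The median log2 change of 18 genes of starch breakdown was -0.18, against -0.02 over all loci tested. Of the 18, none passed lower and 1 passed higher at day 0.083, where 0.749% of all loci did. The gene was BAM9, whose product RefSeq calls beta-amylase 3 although the name BAM3 belongs to AT4G17090. It was at 272 and 243 CPM against 55.9 and 92.4 CPM, high in both replicates of day 0.083, with a log2 change of 1.78 ± 0.26 (SE) (edgeR, adjusted p 0.0486). It did not pass without the filter on low counts (adjusted p 0.0666), with counts halved (0.0503) or with lane 1 alone (0.0511). BAM3, a main beta-amylase of the leaf at night, had 5608 ± 32.0 CPM at day 0.083 (SD, n = 2) and 2714 ± 509.5 CPM at day 0.916. Its groups did not overlap, and the log2 change of 1.03 ± 0.25 (SE) did not pass (edgeR, adjusted p 0.136, and 0.00252 with the spread of the 6 groups). GWD1 (log2 -0.23), PWD (-0.33), DPE2 (-0.38) and MEX1 (-0.15) were slightly lower at day 0.083 in both replicates and did not pass. None of the 14 genes of starch synthesis passed, where 1.26% of all loci tested did, and the median log2 change was -0.06.

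The median log2 change of 17 genes that darkness or low sugar induces was -0.23, against -0.02 over all loci tested. Of the 17, none was called higher and 2 lower at day 0.083, where 0.514% of all loci were called lower. TPS8, a trehalose-phosphate synthase of the class II family, was at 19.8 and 17.3 CPM at day 0.083 and at 44.9 and 65.5 CPM at day 0.916, with a log2 change of -1.59 ± 0.21 (SE) (edgeR, adjusted p 0.0376). KMD1, a kelch-repeat F-box gene, was scarce, at 1.52 and 2.01 CPM against 7.23 and 6.55 CPM, with a log2 change of -1.98 ± 0.24 (SE) (edgeR, adjusted p 0.0323). Neither gene's groups overlapped, and TPS8 did not pass without the filter on low counts (adjusted p 0.0532). The larger fitted value of AT3G15450, -2.33 ± 0.41 (SE), did not pass (edgeR, adjusted p 0.0774), with 10.4 and 6.08 CPM against 26.9 and 54.6 CPM. ASN1, an asparagine synthetase gene that darkness induces, had 4.56 and 7.53 CPM against 6.01 and 3.88 CPM with overlapping groups.

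No gene of the cold list passed under TMM scaling, and 3 (GOLS3, KIN1 and COR15A) passed higher at day 0.083 under total-count scaling, where 0.744% of all loci did. Of 22 genes, 17 had a positive log2 change and 17 had groups that did not overlap, and the median was 0.66. Over all loci tested, 9545 of 20438 had a positive change, the groups of 49.2% did not overlap, and the median was -0.02. The largest change of the cold list was that of GOLS3, a galactinol synthase gene. It was at 939.6 and 843 CPM at day 0.083 and at 227 and 106 CPM at day 0.916. Both replicates of day 0.083 were high, replicate 1 of day 0.916 was well above replicate 2, and the log2 change of 2.41 ± 0.37 (SE) had an adjusted p of 0.0518 (edgeR). The dehydrin genes ERD10, with 3173 and 2809 CPM against 1325 and 1054 CPM, and COR47, with 2528 and 2149 CPM against 1200.4 and 973 CPM, and the stress protein gene RD29A, with 3872 and 3382 CPM against 1609.5 and 1136 CPM, showed the same order. Their log2 changes were 1.32, 1.09 and 1.39, with adjusted p of 0.072, 0.0946 and 0.0846 (edgeR). Of the CBF factors that switch on these genes, CBF2 was at 47.7 and 47.4 CPM against 28.5 and 18.7 CPM (log2 1.00, adjusted p 0.0966), while CBF3 overlapped between the groups. With the spread of the 6 groups 11 of the 22 passed higher and 1, ZAT10, lower, against 4.91% and 3.59% of all loci. Against replicate 2 of day 0.916 alone the median log2 change of the list was 0.89, and against replicate 1 alone 0.53. Replicate 1 of day 0.916 lay above replicate 2 for 20 of the 22.

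Abscisic acid is the hormone of drought and dehydration responses. None of 15 genes of its synthesis and response passed here. The median log2 change was 0.71 with 14 positive values, against -0.02 and 9545 of 20438 over all loci tested. ATHB12, a homeodomain factor induced by the hormone, had 105 and 89.8 CPM at day 0.083 and 39.1 and 22.2 CPM at day 0.916, with no overlap. Its log2 change of 1.66 ± 0.27 (SE) had an adjusted p of 0.0598 (edgeR). With the spread of the 6 groups it passed along with 4 others of the list, where 4.91% of all loci passed higher. Against replicate 2 of day 0.916 alone the median log2 change of the list was 1.08, and against replicate 1 alone 0.53. Over all loci tested those medians were 0.01 and -0.0001. In all 15 genes replicate 1 lay above replicate 2, at day 0.916 and at day 0.083 alike. PIF4, a bHLH factor of growth in darkness and shade, passed alone among 15 genes of its list, where 1.26% of all loci did. It was at 12.1 and 11.2 CPM against 36.4 and 28.0 CPM, low in both replicates of day 0.083, with a log2 change of -1.48 ± 0.16 (SE) (edgeR, adjusted p 0.0249). PIF5, at 40.4 and 39.7 CPM against 48.6 and 38.6 CPM, overlapped between the groups.

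Genes outside these lists filled most of the extremes. Among loci with a mean log2 CPM of at least 3 the 12 largest rises at day 0.083 held 5 members of the clock and photoperiod lists (ASG4, LHY, AT1G26790, CCA1 and COL2). BBX18 and BBX16, B-box zinc finger genes, were at 112 and 117 CPM against 16.5 and 10.4 CPM and at 27.4 and 18.8 CPM against 2.95 and 2.78 CPM. Both were high in each replicate of day 0.083, with log2 changes of 3.07 ± 0.23 (SE) and 2.99 ± 0.22 (SE) (edgeR, adjusted p 0.0115 and 0.0115). ELIP2, an early light-induced protein that binds chlorophyll in stressed thylakoids, had 124 and 165 CPM against 23.7 and 16.7 CPM. Its replicates differed within each group by less than the groups did, and the log2 change was 2.83 ± 0.23 (SE) (edgeR, adjusted p 0.0145). The other 4 are AT3G55580 (an RCC1 family gene, log2 2.90), AT2G41250 (a haloacid dehalogenase-like hydrolase gene, 2.84), AT1G48100 (a pectin lyase-like gene, 2.84) and AT5G54130 (a calcium-binding phosphatase family gene, 2.55).

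The 12 largest falls were led by AT3G62550, annotated as an adenine nucleotide alpha hydrolase-like gene. It was at 18.6 and 17.64 CPM at day 0.083 and at 118 and 114 CPM at day 0.916, with replicates close in each group and a log2 change of -2.69 ± 0.11 (SE) (edgeR, adjusted p 0.00372). Several of the falls are genes of transcription factors. ZF1, a zinc-finger gene, was at 3.04 and 2.09 CPM against 18.3 and 13.9 CPM and WRKY18, a factor of defence responses, at 40.7 and 33.0 CPM against 192 and 159 CPM. Their log2 changes were -2.67 ± 0.25 (SE) and -2.27 ± 0.16 (SE) (edgeR, adjusted p 0.0208 and 0.0115). BT4, which encodes a BTB and TAZ domain protein, had 94.0 and 77.9 CPM against 292 and 372 CPM, with all values of day 0.916 far above those of day 0.083 (log2 -1.97, adjusted p 0.0208, edgeR). XTH33, a cell wall transglycosylase gene, had 7.44 and 4.99 CPM against 22.0 and 33.9 CPM (log2 -2.19, adjusted p 0.0376, edgeR), and it did not pass without the filter on low counts (0.0534) or with lane 1 alone (0.0734). LUX is among the 12, and the others are AT1G72416 (log2 -2.19), AT5G61590 (-2.02), AT2G44500 (-2.02), AT4G16563 (-1.98), AT1G07050 (-1.94) and AT5G14120 (-1.84, which did not pass without the filter on low counts, adjusted p 0.0529).

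The replicates of day 0.916 were further apart than those of day 0.083. Over the 20438 loci tested 1258 (6.16%) were at least 2-fold apart between them, 524 with replicate 2 higher (2.56%) and 734 with replicate 1 higher (3.59%). At day 0.083 the count was 474 (2.32%), and the median absolute log2 difference was 0.12 there against 0.26 at day 0.916. No test is possible between single replicates, and these values are descriptions. Genes of photosynthesis were higher in replicate 2. For the light-harvesting antenna proteins this held for 18 of 18 genes, with a median log2 difference of 0.91, for chlorophyll synthesis for 13 of 13 (0.84) and for the leaf markers for 9 of 9 (0.91). LHCB1.3 was at 2444 and 5357 CPM in replicates 1 and 2 of day 0.916, with 4506 and 3165 CPM at day 0.083. RBCS3B, a small subunit gene of Rubisco, was at 3546 and 8054 CPM, with 4205 and 3826 CPM at day 0.083. In both genes the values of day 0.083 fell between the replicates of day 0.916. The antenna and Rubisco small subunit families hold similar copies, with 88.8% identity for LHCB1.3 and 91.6% for RBCS3B. The authors' counting could split reads among such copies.

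Nitrate assimilation, which follows light and sugar supply, went the same way in 7 of 8 genes, with a median of 0.85. NIR1, the nitrite reductase gene, was at 166 and 492 CPM in replicates 1 and 2 of day 0.916 and at 284 and 222 CPM at day 0.083. The heat shock list was mixed. Of its 10 genes tested, 6 were higher in replicate 2, against 9447 of all 20438 loci, and the log2 differences ran from -2.55 to 2.73. HSP101 had 9.43 and 27.7 CPM and HSP70 14.8 and 51.3 CPM, whereas 2 genes of the list were at least 2-fold higher in replicate 1. Replicate 1 lay above replicate 2 for 17 of 18 phenylpropanoid genes (median log2 difference -0.70) and 15 of 15 abscisic acid genes (-0.62). The same held for 13 of 13 defence genes (-0.52) and 20 of 22 cold genes (-0.42), against 10991 of all 20438 loci. DFR, an enzyme gene of anthocyanin synthesis, was at 526 and 247 CPM in replicates 1 and 2, and MYB90, a factor that activates it, at 57.3 and 17.59 CPM. The values of day 0.083, 359 and 349 CPM for DFR and 39.8 and 27.2 CPM for MYB90, again fell between them. None of these lists had a member past the threshold between the times in the test of 4 replicates.

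Single genes were further apart, and those named next were taken for the size of their difference. BT2, a BTB and TAZ domain gene that sugar and nitrogen supply regulate, was at 1.34 and 42.4 CPM in replicates 1 and 2 of day 0.916 and at 1.72 and 0.780 CPM at day 0.083. Replicate 1 was thus at the level of day 0.083 and replicate 2 far above it. DIN10, a raffinose synthase family gene that darkness induces, was at 41.6 and 182 CPM, GER3, a germin-like gene, at 149 and 623 CPM and CLC-A, a nitrate transporter of the vacuole, at 31.0 and 148 CPM. LBD39, a repressor of nitrate responses, was at 3.06 and 14.0 CPM and AT1G49500 at 1.92 and 20.2 CPM. In the other direction BCAT2, a branched-chain amino acid transaminase gene, was at 57.4 and 15.6 CPM in replicates 1 and 2, ST2A, a sulfotransferase gene, at 120.2 and 34.8 CPM and ABCG40, an abscisic acid importer gene, at 34.8 and 8.81 CPM. The defensin gene PDF1.2c, at 121 and 28.8 CPM, the glutamate receptor gene ATGLR1.2, at 9.79 and 2.23 CPM, and AT2G45220, at 15.4 and 4.17 CPM, complete the 6 with replicate 1 higher.

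**Figure D4:**
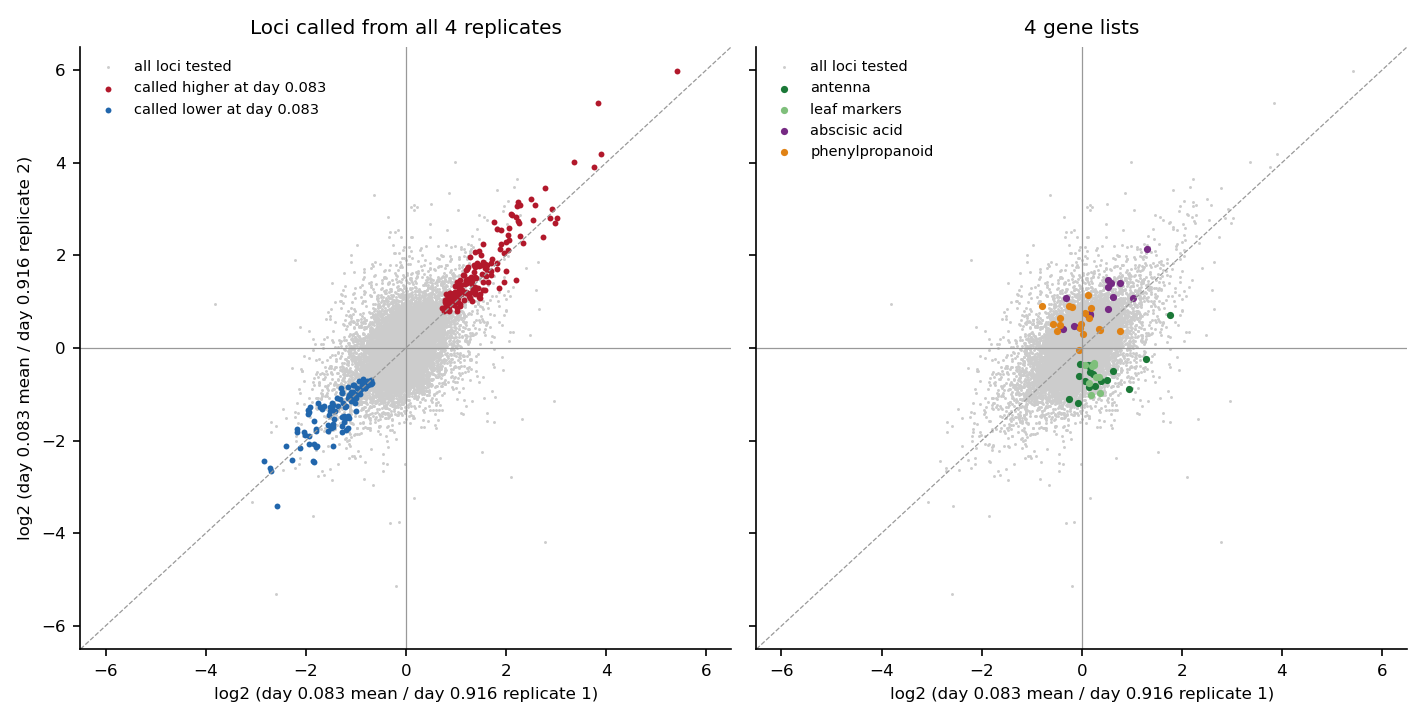
Log2 ratio of the day 0.083 mean to replicate 1 (horizontal) and replicate 2 (vertical) of day 0.916 for the 20438 loci tested, after adding 0.05 CPM. Left, the 258 called loci lie along the dashed line of equal ratios, which a test that needs close replicates favours. Right, genes of the antenna and leaf marker lists lie below that line and those of the abscisic acid and phenylpropanoid lists above it.

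The choice of replicate set the direction of whole lists against day 0.083. With replicate 1 of day 0.916 alone, 14 of 18 antenna genes and 9 of 9 leaf markers had a positive log2 change (medians 0.20 and 0.24). With replicate 2 alone, 1 of 18 and 0 of 9 were positive (medians -0.58 and -0.63). Over all loci tested, 10215 of 20433 were positive with replicate 1 and 10436 of 20437 with replicate 2. For the phenylpropanoid list the medians were -0.03 with replicate 1 and 0.51 with replicate 2. Calls from a single replicate, where given, assume that it varies like the pair of day 0.083. The clock lists kept their direction with either replicate: the median of the morning genes was 1.02 with replicate 1 and 1.36 with replicate 2, and that of the evening genes -1.06 and -0.59.

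In their clock and photoperiod genes the replicates of day 0.916 lay closer to each other than to the times next to them, though replicate 1 was above replicate 2 for 32 of the 37 loci. The medians of replicate 2 minus replicate 1 were -0.35 for the morning, -0.32 for the evening and -0.23 for the photoperiod genes. The mean absolute log2 difference over 37 loci was 0.43 between them, whereas from the mean of day 0.083 it was 1.36 for replicate 1 and 1.47 for replicate 2, and from the mean of day 0.75 1.42 and 1.52. Over all loci tested the replicates were 0.37 apart, and 0.33 and 0.40 from day 0.083. The share of counts from chloroplast genes was 0.888% in replicate 1 and 0.556% in replicate 2 of day 0.916, against 0.454% and 0.689% at day 0.083. The part of it in these differences was not tested.

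At day 0.75, the labelled time before day 0.916, 5 of these lists separated the replicates with the numbers reversed. Replicate 1 lay above replicate 2 there for 18 of 18 antenna genes (median log2 difference -0.58 as replicate 2 minus replicate 1), 13 of 13 chlorophyll genes and 9 of 9 leaf markers, and replicate 2 lay above replicate 1 for 15 of 15 abscisic acid genes and 16 of 18 phenylpropanoid genes (0.94). The heat shock list kept its sign (0.48, against 0.66 at day 0.916) and the defence list did not separate the replicates (0.03). DFR was at 203 and 502 CPM in replicates 1 and 2 of day 0.75. Across the loci tested the difference of replicate 2 minus replicate 1 at day 0.75 had a Pearson correlation of -0.38 with that at day 0.916, a description over loci that are not independent. For the pair of day 0.083 the correlation was -0.02. The order of the antenna genes was not particular to day 0.75: replicate 1 lay above replicate 2 for 17 of 18 at days 0.083 and 0.25 and for 18 of 18 at days 0.375 and 0.625, so day 0.916 stood alone in the reverse order. The antenna medians at those 4 times were -0.46, -0.20, -0.29 and -0.19. Replicate 1 also lay above replicate 2 at those times for 8 or 9 of 9 leaf markers and 11 to 13 of 13 chlorophyll genes. Replicate 2 was higher for 0, 10, 15 and 3 of 15 abscisic acid genes at days 0.083, 0.25, 0.375 and 0.625. For the 18 phenylpropanoid genes it was 13, 13, 5 and 5. The labels name no plants, batch or day that replicates of the same number share across times.

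**Figure D5:**
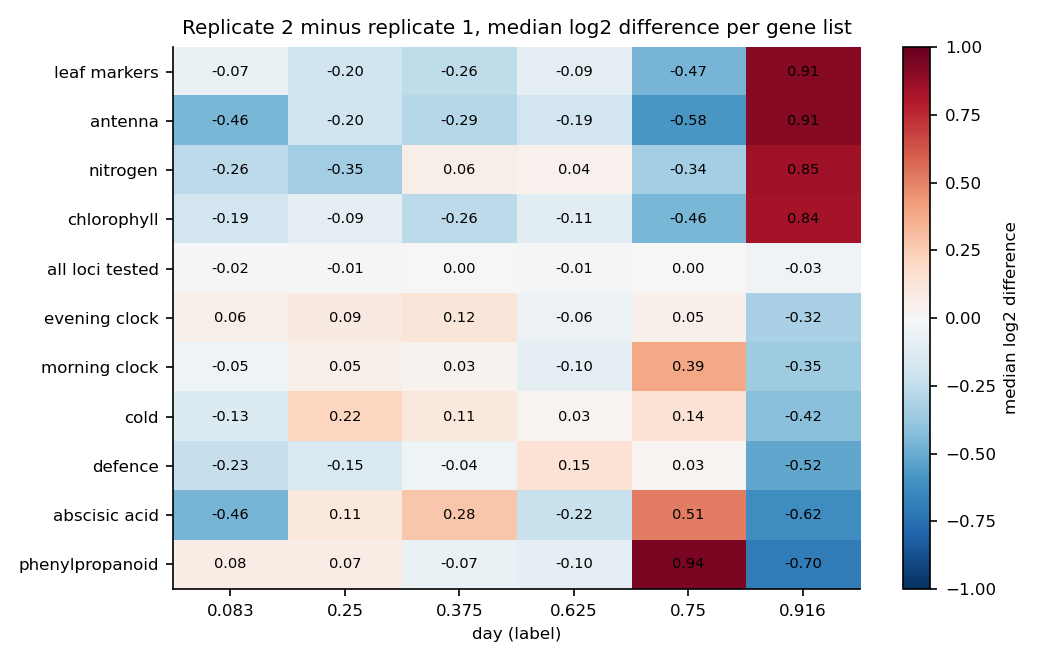
Median log2 difference of replicate 2 minus replicate 1 for 10 gene lists and all loci tested at each labelled day. At day 0.916 the leaf marker, antenna, nitrogen and chlorophyll lists stand at 0.84 to 0.91 and the phenylpropanoid list at -0.70. At day 0.75 the signs are reversed, with -0.58 for antenna and 0.94 for phenylpropanoid.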

How the data were processed

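Per the file headers, the deposited values are counts of reads, not normalized, for each transcript on each lane. The submitters' processing notes name Bowtie2 and TAIR10, and the counting tool and the use of strand are not given in the sources used here. Of the deposited counts from 1 to 10, 70.2% are even, which counting both mates of a pair would give and the sources do not state. The 2 lanes of a replicate were added up, as were the 41671 transcripts within 33602 loci, of which 32835 matched the RefSeq table of TAIR10.1, the source of names and coordinates. All columns of the diurnal replicates were used, and those of the separate growth light 250 group were not.

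The test was that of edgeR 4.0.16, run in R 4.3.3 (TMM scaling, filterByExpr, quasi-likelihood F tests, Benjamini-Hochberg over all loci tested, threshold 0.05) on the 4 replicates alone, because the replicates of day 0.916 are much further apart than those of the other times. An SE is the size of the log2 change over the root of its F statistic. Log2 levels of single replicates use a prior count of 1. CPM values come from one scaling of the 12 diurnal replicates. The procedure was tested on simulated data. Both groups were simulated with the same spread per locus, so the simulation cannot speak for groups of unequal spread such as these. The alternatives were RLE size factors, total counts, DESeq2 1.42.0, other filters, a replicate block, a spread shared by 6 groups, limma 3.58.1 (voom) with a spread per group, halved counts, single lanes and each replicate left out. The p-values measure the spread between pools of plants.

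The members and the 23 gene lists (282 loci) were chosen with earlier results of these data known. Named were all members of the clock and photoperiod lists, VTC2 and VTC5, up to 4 called members per direction of each other list, and over all loci the 12 largest rises and 12 largest falls that passed the threshold without overlap of the groups and had a log2 CPM of 3 or more on average. Other genes were named after their values were seen. In the jasmonate list, 0 of 16 genes passed, where 1.26% of all loci tested did, and the median log2 change was -0.26. Of the 62 loci named by the rule, 5 have a near-identical copy (at least 85% identity over at least 100 bases by blastn 2.17.0: RVE7, FKF1, BBX18, PRR9 and CO) and 20 overlap another gene, so without strand their reads cannot be told apart.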

Additional observations from a re-analysis of the deposited data

How the results depend on the processing

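Of 915 values of named genes under other settings, 752 kept direction and call, 84 lost the call, 76 gained it and 3 changed sign. Many of these genes were named because they passed without overlap of the groups. Every setting also drew its change from the same 4 replicates or some of them. A kept direction was thus largely fixed by the choice of genes and is no added support. The log2 change of PRR9, -0.22, became 0.19 with lane 2 alone and ran from -0.54 (without replicate 2 of day 0.916) to 0.22 (without replicate 1) with a replicate left out. That of AT2G34140, -0.47, ran from -0.89 to 0.11, which was without replicate 2 of day 0.916. The cause was not tested.

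The count of called loci, 258, moved with the fit, which in several settings changed the test, the scaling or the loci tested together: DESeq2 called 1052, a spread shared by 6 groups 1781, voom with a spread per group 1113, and no filter on low counts 168. Leaving out one replicate gave 2 to 4424. Clock and photoperiod calls, 15, became 27 with DESeq2, 28 with 6 groups, 27 with voom and 2 to 31 with a replicate left out. Calls in the other lists, 5, became 10 under total-count scaling, 32 with DESeq2, 3 with no filter, 8 with the replicate block, 42 with 6 groups, 33 with voom, 8 with lane 1, 9 with lane 2 and 0 to 119 with a replicate left out. The replicate block called 226 loci, of which 188 were among the 258, and the labels give no plants or batch that a number shares across times. Among the named loci VTC2 (adjusted p 0.102) and AT4G01280 (0.0782) were not among its calls. The evening element share among loci called lower, 13.3%, ran from 4.38% to 6.93% with one replicate of day 0.916. Loci with replicates of day 0.916 at least 2-fold apart, 1258, became 3164 with no filter. Total-count scaling moved the median log2 change of all loci from -0.02 to -0.05. Of its calls 53.1% were higher at day 0.083, against 59.3%.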
